A study of Bos taurus with 8 samples.

Results

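The cells described here were fibro-adipogenic progenitors (FAPs) of cattle muscle at passage 0 (P0), compared between cells assigned to the G2M phase of the cell cycle and cells assigned to G1. Members were the cells of the P0 library that the authors labelled as FAPs, chosen by the deposited phase, which rests on the measured expression of 2 lists of cell cycle genes. Of 9591 P0 cells, 5756 were FAPs, of 36129 cells in the whole series, and they held 2099 cells in G2M, 1196 in G1 and 2461 in S. Unique molecular identifiers (UMIs, one per captured transcript) were summed over the cells of each phase in each of 9 animals, which gave 9 pairs of a G2M sum and a G1 sum.

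The series profiled single cells from semitendinosus muscle of Belgian Blue cattle, fresh and after increasing time in culture, to find out which muscle cell types grow in conditions meant for cultured meat. At P0, the adherent cells of all 9 animals had spent 72 h in serum-free growth medium and were unsorted. Animals 2, 4, 5, 7 and 10 were calves and animals 1, 6, 8 and 9 were adults, females and males among both. G1 and G2M cells of an animal came from the same culture and no treatment separated them. All animals were pooled in 1 library, read in 2 runs that were joined, and cells were returned to their animals by genotype, which recognises a droplet with cells of 2 animals but not of 1.

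FAPs are the connective tissue progenitors of muscle, which make matrix and can turn into fibroblasts or fat cells. A cell in G1 grows and either commits to copying its DNA in S phase or leaves the cycle, and inhibitors such as CDKN1A (p21), a target of p53, hold it there. After S phase, a wave of genes for spindle, chromosome and division proteins is switched on for G2 and mitosis. Seurat, the software used for the deposited phase, scores each cell for a list of S genes and a list of G2M genes against control genes of similar expression. It calls a cell G1 where both scores are below 0 and otherwise takes the larger score, so the G1 class also takes in cells that have stopped dividing.

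The phase was read from the same transcripts that are compared below. The 44 S genes and 54 G2M genes of Seurat's lists were thus treated as part of the rule. They join an older and a newer version of the lists, as the version the authors scored is not stated. Below they are called the scored genes. They stayed in the fit with the other genes, but their values are given as a description only. The label of the cells was checked first. PDGFRA, the receptor that marks FAPs, was at 282 CPM (UMIs scaled to a common total) over all P0 FAPs and 61.4 CPM in the satellite cells (SCs) of the same library, and DCN (decorin) at 2870 against 1140 CPM. The SC genes MYF5 and PAX7 were at 2.94 and 0.103 CPM in FAPs, against 63.8 and 3.69 CPM in SCs. The 9 FAP markers summed to 5620 to 9950 CPM per animal in G1 and 5190 to 8790 CPM in G2M, ranges that overlapped, with none of the 9 at 0. Of these markers, 4 passed lower in G2M and 0 higher by edgeR, SCARA5 (log2FC -1.60), MFAP5 (-0.80), DCN (-0.34) and COL1A1 (-0.28), each lower in 9 of 9 animals. None was higher at an unadjusted p below 0.05 or by DESeq2, while per cell 7 passed higher and 1 lower.

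Most FAPs at P0 were assigned to S or G2M. Over the 9 animals, G1 held 21.3 ± 5.59% (SD, n = 9) of FAPs, with a lowest, median and highest animal at 12.9%, 22.0% and 27.2%. S held 42.8 ± 4.55% and G2M 36.0 ± 3.17%, the latter between 32.0% and 41.2%. SCs of the same animals were spread more widely, with 35.1 ± 14.1% in G1 and 29.9 ± 3.95% in G2M. They numbered from 45 in animal 2 to 469 in animal 6, and each animal counted alike. The G2M share of FAPs was above that of SCs by 6.09 ± 3.81 percentage points, in 8 of 9 animals (two-sided exact permutation test over animals, p = 0.00781, adjusted over 3 phases 0.0234). The smallest p that 9 animals allow is 0.00391. The G1 share was lower in FAPs by 13.8 ± 13.1 points, in 7 of 9 animals (exact p = 0.0195, adjusted 0.0292). That G1 difference missed the threshold when phases were scored again from the raw UMIs (adjusted exact p = 0.0703) and when each cell was thinned to 5000 UMIs first (adjusted exact p = 0.0996), while the G2M difference passed in both. The S shares differed by 7.75 points (adjusted exact p = 0.0547).

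**Figure D1:**
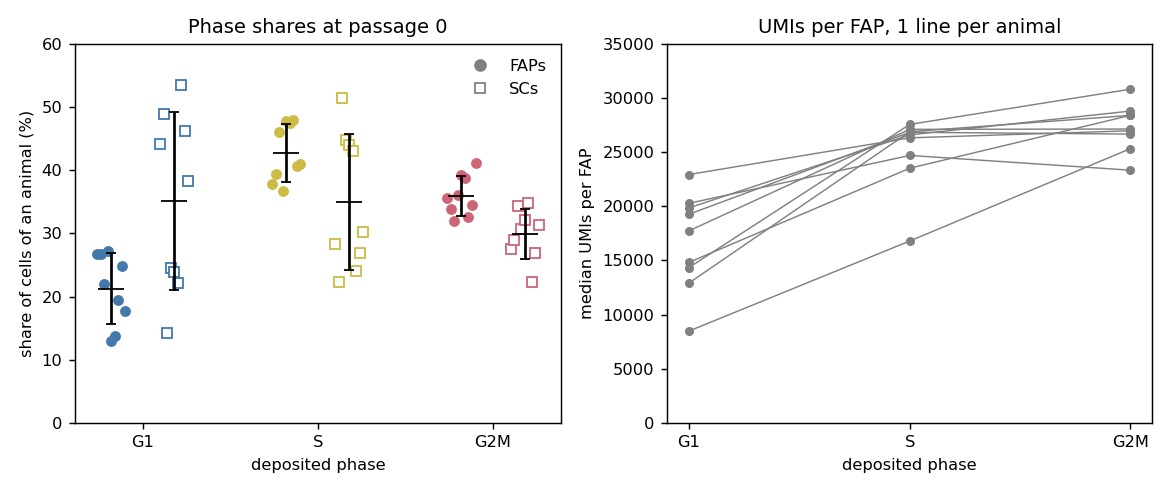
Left, percent of P0 cells in G1, S and G2M for each animal (points) in FAPs and SCs, with the mean and SD over 9 animals. Right, median UMIs per FAP in each phase, one line per animal. FAP shares in G1 run from 12.9% to 27.2%, and G2M medians lie 1.15 to 2.99 times above the G1 medians of the same animal.

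The amount of RNA captured per cell moved with the phase. The median FAP held 17166.5 UMIs in G1, 25453 in S and 27243 in G2M, and within an animal the G2M median was 1.15 (animal 5) to 2.99 (animal 4) times the G1 median. Cells under 10000 UMIs made up 32.1% of G1, 22.1% of S and 21.1% of G2M. Scored again from the raw UMIs, the G1 share of FAPs was 28.6%, the S share 32.8% and the G2M share 38.7%. Thinned to 5000 UMIs before that scoring, with shallower cells left out, they were 31.7%, 32.1% and 36.2%. Scoring the raw UMIs again gave the deposited phase in 99.3% of G1, 97.9% of G2M and 76.8% of S cells, so the S class was the least settled. Scores lay within 0.05 of a phase boundary in 302 G1 cells (25.3%) and 286 G2M cells (13.6%). Just inside the cut, 136 G2M cells with a G2M score up to 0.05 had a median score of 0.0315 and 5413.5 UMIs. Just outside it, 102 G1 cells scoring down to -0.05 had a median of -0.0229 and 5301 UMIs, so cells at the cut were shallow on either side.

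G1 sums held 89 to 213 cells and 1440323 to 4162436 UMIs per animal, and G2M sums held 156 to 390 cells and 4201521 to 10654205 UMIs, so the lowest levels were less precise in G1. Levels below are CPM of these sums, a share of the captured transcripts, and log2FC is the log2 fold change of G2M over G1 from edgeR, with its standard error (SE). In such sums, fewer cells with a transcript and fewer transcripts per cell cannot be told apart. A gene "passed" at a Benjamini-Hochberg adjusted p below 0.05 over all genes tested and was "called" where its log2FC was also beyond 1 in either direction.

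The scored genes set the scale, as values only. The 54 G2M genes had a median log2FC of 2.62, from 0.60 for JPT1 to 4.04 for TOP2A, the topoisomerase that untangles chromosomes, which was at 29.7 CPM in G1, 124 in S and 477 in G2M. The 43 S genes in the fit had a median of 1.04, from 0.14 for WDR76, which peaked in S at 48.1 CPM against 17.7 in G1 and 19.8 in G2M, to 2.69 for CLSPN. A further 302 known cycle genes and histones had a median of 1.12, of which 260 passed higher and 14 lower in G2M.

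CDKN1A and CDKN1C, inhibitors of the cyclin-dependent kinases that drive the cycle, were the only called members of those 302 that were lower in G2M. CDKN1A was at 105, 303 and 622 CPM in the lowest, median and highest animal in G1, and at 48.8, 59.9 and 86.5 CPM in G2M. Every G1 value was thus above every G2M value (log2FC -2.19 ± 0.23 SE, edgeR adjusted p = 5.8e-05), and S, with a median of 72.5 CPM, lay close to G2M. CDKN1C was scarcer, with a median of 4.68 CPM in G1 and 2.20 in G2M and overlapping ranges (log2FC -1.18 ± 0.34, edgeR adjusted p = 0.011), and without animal 7 its log2FC was -0.79.

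Of 9642 genes tested, 2079 (21.6%) passed higher and 2496 (25.9%) lower in G2M, with 299 (3.10%) called higher and 176 (1.83%) called lower. These counts take in the scored genes, of which 39 of the S list and 54 of the G2M list are among those that passed higher and 22 and 50 among those called, an outcome that the phase call itself fixed. Outside the cycle lists, 9243 genes were left, with a median log2FC of -0.04. Of these, 1726 (18.7%) passed higher and 2482 (26.9%) lower, 65 (0.703%) were called higher and 174 (1.88%) called lower. As a share of transcripts, called genes outside the cycle lists were thus mostly lower in G2M, whereas per cell 922 were called higher and 24 lower. That majority rests on leaving out the cycle lists, which hold mostly genes high in G2M. Over all genes, more were called higher (299) than lower (176). Directions given for genes and lists are those of a share of transcripts. Counted per cell, the median of all genes was 0.63 higher in G2M, and every list named below with a median under 0 as a share had one above 0 per cell, apart from the endothelial markers. The 9 G2M values lay wholly above the 9 G1 values for 6.07% of all genes and wholly below for 2.38%, and 12.7% and 13.3% were higher or lower in G2M in 9 of 9 animals.

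**Figure D2:**
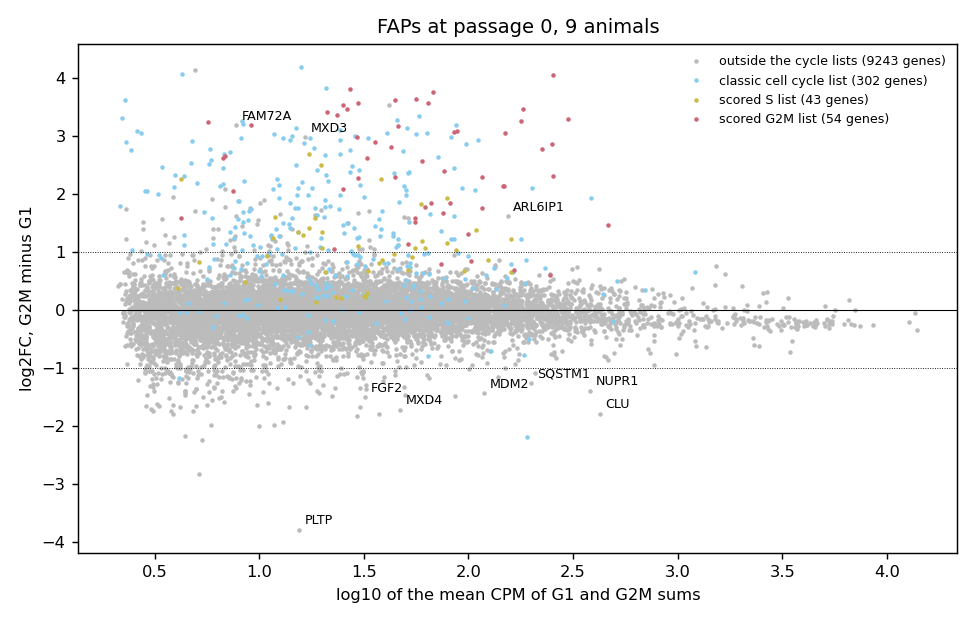
log2FC of G2M over G1 in P0 FAPs (y axis) against the log10 mean CPM of both phases (x axis, log scale), one point per gene of 9642. Seurat list genes and other cycle genes fill the upper part, while among genes outside those lists 65 are called higher and 174 lower.

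Outside the cycle lists, the highest genes with a symbol and at least 10 CPM in either phase were led by FAM72A and MXD3. FAM72A, a small protein that binds the repair enzyme UNG, was at 0, 1.57 and 2.80 CPM in G1 and 11.1, 13.6 and 17.5 CPM in G2M (log2FC 3.18 ± 0.20, edgeR adjusted p = 2.4e-14). Its G1 level rested on 32 UMIs over all animals, against 819 in G2M. MXD3, a repressor that competes with MYC for its partner MAX, was at 1.68, 3.69 and 6.53 CPM in G1, 5.88, 9.83 and 12.7 in S and 22.8, 29.5 and 39.3 in G2M (log2FC 2.97 ± 0.14, edgeR adjusted p = 2.9e-17). In both genes all 9 G2M values lay above all 9 G1 values.

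A further group of the 15 highest serves DNA repair and replication. These were GEN1, a nuclease for crossed DNA strands (log2FC 2.08 ± 0.17), MGME1, a nuclease of mitochondrial DNA (1.90 ± 0.14), POLH, a polymerase that copies past damage (1.73 ± 0.13), RHNO1, a partner of the checkpoint clamp (1.67 ± 0.09), TDP1, which frees trapped topoisomerase (1.63 ± 0.15), and DBF4, the activator of the replication kinase CDC7 (1.59 ± 0.08). POLH was at 4.46, 8.97 and 13.3 CPM in G1 and 25.6, 29.6 and 37.1 in G2M. DBF4 was at 17.3, 24.3 and 31.3 CPM in G1 and 69.9, 73.4 and 79.6 in G2M. Both also stood higher in S than in G1, at a median of 16.4 and 41.0 CPM.

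Centrosome and membrane genes made up part of the rest. PCNT (pericentrin), a scaffold of the centrosome, was at 9.79, 15.7 and 19.7 CPM in G1 and 46.5, 50.8 and 58.1 in G2M (log2FC 1.70 ± 0.08, edgeR adjusted p = 2.3e-17). HYLS1, a centriole protein, had a log2FC of 1.75 ± 0.17. ARL6IP1, which shapes the endoplasmic reticulum, was the most abundant of the 15, at 61.7, 77.6 and 88.1 CPM in G1 and 211, 228 and 264 in G2M (log2FC 1.61 ± 0.05, edgeR adjusted p = 3.7e-22). In S it was still at 74.3 to 95.8 CPM, overlapping G1. TCF19, a nuclear protein, was highest in S, at a median of 16.9 CPM against 2.80 in G1 and 10.8 in G2M. C24H18orf54, TRIM59 and MYEF2 completed the 15, with log2FC of 1.84, 1.66 and 1.63. By the rule that named them, all 15 passed and were higher in G2M in 9 of 9 animals. The 2 phases did not overlap in any of the 15, as in 6.07% of all genes, cycle genes among them. As the 15 were chosen for large differences on these same sums, which favours a lack of overlap, this is a description.

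Several of the 15 genes lowest in G2M encode lipid-binding proteins. PLTP, a lipid transfer protein, had the lowest log2FC. It was at 10.9, 22.5 and 89.2 CPM in G1, at 0.65, 1.63 and 2.94 CPM in S and at 0.68, 2.25 and 2.71 CPM in G2M (log2FC -3.78 ± 0.37, edgeR adjusted p = 2.6e-05). In both S and G2M it was close to absent, on 89 and 116 UMIs in all against 582 in G1. FABP4, a fatty acid carrier of fat cells, was at 8.39, 11.3 and 44.3 CPM in G1 and 2.49, 4.91 and 8.10 in G2M (log2FC -1.98 ± 0.26, edgeR adjusted p = 6.3e-05). APOE, a lipoprotein component, was at 21.5, 46.1 and 80.8 CPM in G1 and 9.41, 12.7 and 25.5 in G2M (log2FC -1.67 ± 0.19, edgeR adjusted p = 4e-05). The ranges met only for APOE among these 3. Over all P0 FAPs, FABP4 and APOE were at 7.14 and 20.9 CPM, against 93.6 and 327 CPM in the smooth muscle and mesenchymal cells of P0. PLTP was at 5.78 CPM in FAPs and 1.56 in those cells. The part of transcripts from those cells in the differences was not tested.

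CLU (clusterin), a secreted chaperone, was the most abundant of the 15 lowest genes. It was at 354, 644 and 1100 CPM in G1 and 124, 155 and 470 in G2M, lower in 9 of 9 animals though the ranges overlapped (log2FC -1.78 ± 0.14, edgeR adjusted p = 8.1e-06). MXD4 was at 49.7, 67.1 and 105 CPM in G1, 17.8, 24.3 and 45.1 in S and 17.2, 20.9 and 34.2 in G2M, with no overlap between G1 and either other phase (log2FC -1.72 ± 0.10, edgeR adjusted p = 9e-10). MXD4 and MXD3, both MAX-binding repressors named for their extreme log2FC, were thus high in G1 and in G2M respectively. Other repressors of that kind are not described. SULF2, which trims sulfate from heparan chains, went from 10.8, 20.0 and 35.3 CPM in G1 to 3.88, 5.23 and 6.74 in G2M (log2FC -1.94 ± 0.13, edgeR adjusted p = 3.2e-13).

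The protease ADAMTS5, which cleaves aggrecan and versican, was at a median of 23.3 CPM in G1 and 7.75 in G2M (log2FC -1.67 ± 0.15). RENBP, an enzyme of amino sugar metabolism, was at 75.3 and 24.6 CPM (log2FC -1.47 ± 0.14). Both passed without overlap between the phases. CPZ, a carboxypeptidase outside the cell, and FBXO2, which marks glycoproteins for breakdown, had log2FC of -1.64 ± 0.22 and -1.67 ± 0.16 with overlapping ranges. The scavenger receptor SCARA5, itself a FAP marker, was lower in G2M by very different amounts, from -0.01 in animal 2 to -2.97 in animal 10 on the log2 scale (fitted log2FC -1.60 ± 0.31, edgeR adjusted p = 0.0015). S100A12, a calcium-binding protein of myeloid cells, was at 34.7 CPM in G1 and 8.32 in G2M at the median. It was at 3370 CPM in the P0 monocytes and macrophages and at 18.5 CPM in FAPs, and the part of monocyte transcripts in the difference was not tested.

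The level in S was placed between the others. Placing G1 at 0 and G2M at 1 on the log2 scale, S lay at a median of 0.858 over the 174 genes called lower, and 167 of them were nearer to G2M than to G1. For the 65 called higher the median was 0.764, with 49 nearer to G2M, and for the 15 highest it was 0.534, with 8. These genes were chosen on the same G1 and G2M sums that set the ends of this scale, which by itself favours an S value away from G1, so the positions are a description.

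**Figure D3:**
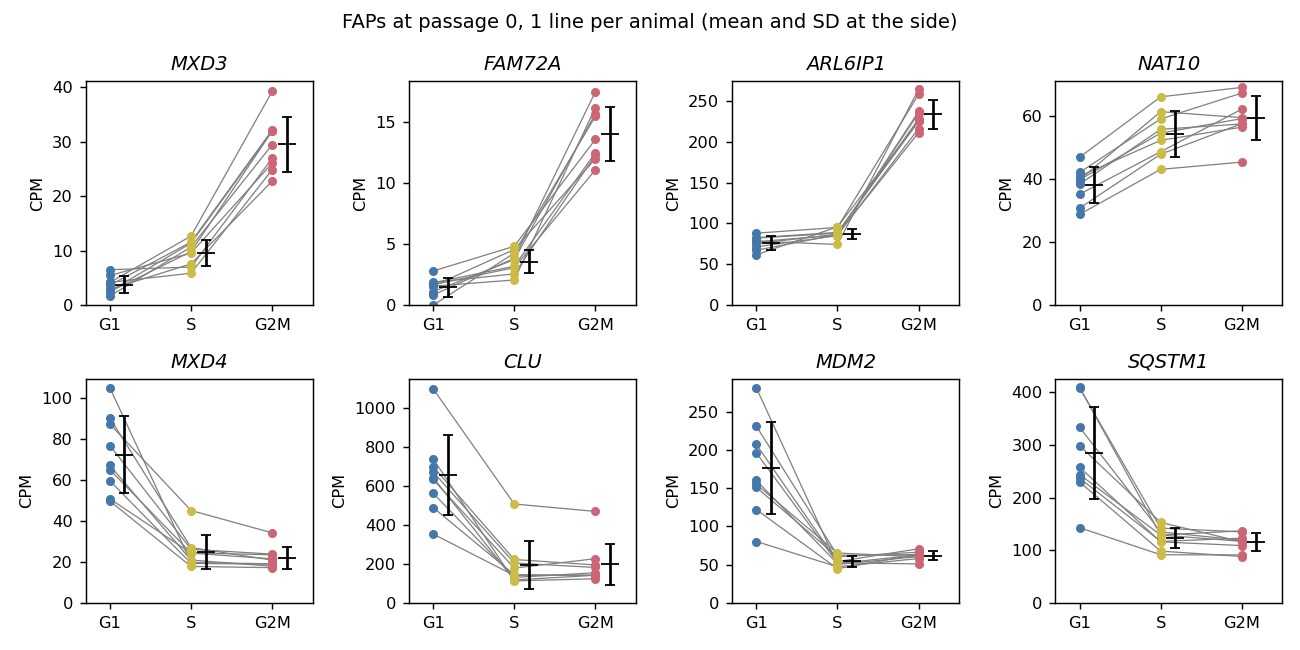
CPM in G1, S and G2M sums of P0 FAPs for 8 genes, one line per animal (n = 9), each panel with its own axis. MXD3, FAM72A, ARL6IP1 and NAT10 end higher in G2M; MXD4, CLU, MDM2 and SQSTM1 are highest in G1 and already low in S.

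Targets of p53, the factor that halts the cycle after damage, were mostly lower in G2M. Of 21 tested, 13 passed lower and 1 higher, beside 25.9% and 21.6% of all genes. Their median log2FC was -0.56 beside -0.02 over all genes. Counted per cell, 10 passed higher and 5 lower. MDM2, which turns p53 over, was at 80.2, 160 and 281 CPM in G1 and 51.0, 62.8 and 70.7 in G2M, with no overlap (log2FC -1.44 ± 0.18, edgeR adjusted p = 0.00017). GDF15, a secreted stress hormone, was at 9.96, 30.8 and 52.4 CPM in G1 and 3.60, 8.39 and 27.1 in G2M (log2FC -1.49 ± 0.14). PERP, a membrane protein of junctions and cell death, was at a median of 148 and 40.5 CPM (log2FC -1.48 ± 0.14). TP53INP1 and SESN2, which act in autophagy and nutrient sensing, were called lower too, at log2FC of -1.26 ± 0.15 and -1.03 ± 0.14. The 1 member that passed higher was POLH. CDKN1A stood in the cycle list and is not counted among the 21.

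Of 33 secreted growth factors and modulators, 18 passed lower and 2 higher in G2M as a share of transcripts, beside 25.9% and 21.6% of all genes, at a median log2FC of -0.31. Per cell, 7 passed lower and 18 higher. FGF2, a mitogen for FAPs and SCs, was at 8.39, 37.6 and 96.8 CPM in G1 and 5.71, 11.4 and 34.9 in G2M, lower in 9 of 9 animals with overlapping ranges (log2FC -1.51 ± 0.23, edgeR adjusted p = 0.00051). VEGFD, GAS6, BMP2, ANGPTL4 and IGF2 were also called lower, at log2FC of -1.44 ± 0.24, -1.30 ± 0.12, -1.16 ± 0.14, -1.05 ± 0.16 and -1.03 ± 0.16. VEGFC, a growth factor of lymph vessels like VEGFD, went the other way, from a median of 42.9 CPM in G1 to 72.9 in G2M (log2FC 0.77 ± 0.06, edgeR adjusted p = 1.5e-11), and SFRP1, a WNT antagonist, passed higher at 0.39 ± 0.08. Of 32 growth factor receptors, 13 passed lower and 1 higher (NOTCH1, 0.47 ± 0.19, lost without any 1 of 6 animals, with edgeR adjusted p up to 0.13). The lower ones held FGFR1 at -0.71 ± 0.12 and TGFBR2 at -0.57 ± 0.09. Per cell, 19 receptors passed higher and 0 lower, with FGFR1 at -0.05 and TGFBR2 at 0.07.

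Complement genes, of the blood-borne defence that FAPs also make, were lower in G2M in nearly every case as a share of transcripts. Of 12 tested, 11 passed lower and 0 higher, beside 25.9% and 21.6% of all genes, at a median log2FC of -0.48. Apart from CLU, which regulates complement, CFB was called, at 111, 202 and 990 CPM in G1 and 43.3, 96.2 and 492 in G2M (log2FC -1.09 ± 0.16, edgeR adjusted p = 0.00043). Counted per cell, 4 complement genes passed higher and 2 lower. Of 24 interferon response genes, 11 passed lower and 0 higher by edgeR as a share of transcripts (25.9% and 21.6% of all genes), at a median log2FC of -0.23, with 0 higher also at an unadjusted p below 0.05 and by DESeq2. Per cell, 14 passed higher and 1 lower. Among 19 chemokines and cytokines, 7 passed lower and 1 higher at a median log2FC of -0.325, against 0 lower and 11 higher per cell. The 1 higher was CXCL5, a neutrophil attractant and one of the most abundant transcripts. It was at 6530 CPM in G1 and 7990 in G2M at the median with a log2FC of 0.17 ± 0.03. CSF2, a growth factor of myeloid cells, was called lower (-1.03 ± 0.19).

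Lysosome and autophagy genes were lower in G2M in 34 of 43 cases and higher in 1, TFE3 (0.25 ± 0.06), itself a regulator of lysosome genes. Among all genes, 25.9% passed lower and 21.6% higher. The lysosome and autophagy genes had a median log2FC of -0.41. SQSTM1 (p62), an autophagy receptor, was at 143, 258 and 410 CPM in G1 and 88.2, 117 and 137 in G2M, with no overlap (log2FC -1.26 ± 0.12, edgeR adjusted p = 3.2e-05). GABARAPL1, of the autophagosome, and CTSD, a lysosomal protease, passed at -0.95 ± 0.08 and -0.83 ± 0.06, and CTSD was at 90.7 to 134 CPM in G1 against 48.9 to 74.7 in G2M. NUPR1, a stress-induced chromatin protein, was at 397, 473 and 949 CPM in G1 and 109, 221 and 362 in G2M, again without overlap (log2FC -1.39 ± 0.11, edgeR adjusted p = 9.2e-06).

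Of 34 redox and ferritin genes, 20 passed lower and 2 higher, beside 25.9% and 21.6% of all genes. GPX3, a secreted peroxidase, was at -1.28 ± 0.12 and TXNIP, an inhibitor of thioredoxin, at -1.11 ± 0.19. Counted per cell, 24 members of the list passed higher and 2 lower. Of 22 immediate early genes, 15 passed lower and 1 higher (FOSL1, 0.34 ± 0.10), against 4 lower and 12 higher per cell. Among them, DUSP1, a phosphatase that ends MAP kinase signals, went from 172, 195 and 252 CPM in G1 to 73.0, 103 and 117 in G2M (log2FC -0.99 ± 0.06, edgeR adjusted p = 9.3e-14), and BTG2, an antiproliferative gene, was called at -1.63 ± 0.22. Of 61 chaperones, 23 passed higher and 16 lower at a median log2FC of 0.08, the count of lower genes being near the share of all genes (25.9%). The small heat shock proteins HSPB8 and CRYAB were called lower, at -1.44 ± 0.12 and -1.15 ± 0.22, while DNAJC9, a histone chaperone, was highest in S, at 33.4 CPM against 7.51 in G1 and 14.4 in G2M.

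Most matrix genes differed by little between the phases. Of 13 interstitial collagens, 6 passed lower and 0 higher at a median log2FC of -0.15, beside 25.9% and 21.6% of all genes. Counted per cell, 11 of them passed higher and 0 lower. COL1A2, a chain of type I collagen, was at 469, 950 and 1490 CPM in G1 and 427, 647 and 792 in G2M (log2FC -0.54 ± 0.11, edgeR adjusted p = 0.0034). DCN, the leading small proteoglycan, was lower by little (-0.34 ± 0.04). OGN (osteoglycin), THBS2 (a thrombospondin) and MGP, which holds back calcification, were called lower at -1.50 ± 0.18, -1.42 ± 0.22 and -1.32 ± 0.24, all at medians of 10.2 CPM or less in G1. Single animals went the other way, with log2 differences of 0.101 for OGN in animal 4 and 0.625 for THBS2 in animal 2. For MGP they were 0.595 in animal 4 and 0.415 in animal 9. Of the same 35 proteoglycans and glycoproteins, 17 passed lower and BGN, FN1, DPT, HAS2 and FBN2 passed higher, FN1 (fibronectin) at 0.18 ± 0.04 and HAS2, which makes hyaluronan, at 0.48 ± 0.14. Of 26 matrix proteases and inhibitors, 15 passed lower and 0 higher.

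Of 30 integrin and focal adhesion genes, 14 passed lower in G2M and 1 higher, beside 25.9% and 21.6% of all genes. Their median log2FC was -0.14 (0.52 per cell). CD9, a tetraspanin, was at 356, 592 and 769 CPM in G1 and 228, 313 and 437 in G2M (log2FC -0.80 ± 0.04, edgeR adjusted p = 7.5e-17), and ITGB5, an integrin, passed at -0.83 ± 0.08. Of 25 adipogenic and lipid-handling genes, 12 passed lower and 0 higher, and FABP4, APOE, CRABP2 and APOD were called. CRABP2, a retinoic acid carrier, was at a median of 42.0 CPM in G1 and 15.4 in G2M (log2FC -1.35 ± 0.11). Among 37 cholesterol and fatty acid synthesis genes, 12 passed higher and 3 lower, beside 21.6% and 25.9% of all genes. Their median log2FC was only 0.1, with medians of single animals from -0.076 to 0.465. TM7SF2, a sterol reductase, was nevertheless called lower, at a median of 6.45 CPM in G1 and 1.41 in G2M (log2FC -2.17 ± 0.23).

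Genes that build ribosomes and process RNA were mostly higher in G2M, where 21.6% of all genes passed higher and 25.9% lower. Of 61 ribosome biogenesis genes, 52 passed higher and 1 lower (UTP14A, -0.24 ± 0.04), with a median log2FC of 0.33 and no member called. NAT10, which acetylates ribosomal RNA, was at 28.8, 39.8 and 46.9 CPM in G1 and 45.4, 59.2 and 69.1 in G2M (log2FC 0.63 ± 0.06, edgeR adjusted p = 7.2e-10), with S at 54.6. Splicing and RNA-binding genes passed higher in 60 of 75 cases and lower in 4 (CLK1, SRSF5, DDX17 and SNRPD2), at a median of 0.26. Chromatin and nuclear architecture genes passed higher in 45 of 57, with NUP35 and NUP43 of the nuclear pore, the chromatin protein HMGB3 and RCC1, which charges the transport factor RAN, called at 1.44 ± 0.17, 1.02 ± 0.13, 1.28 ± 0.13 and 1.01 ± 0.14. H2AJ, HMGN4 and HMGA1 passed lower. HMGA1 (-0.15 ± 0.06) and CLK1 (-0.21 ± 0.09) were marginal, as each missed the threshold without any 1 of 7 animals, with edgeR adjusted p up to 0.16 and 0.11.

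The proteins of the ribosome itself went the opposite way from the genes that assemble it. Of 76 cytosolic ribosomal proteins, 75 passed lower and 0 higher, by small amounts at a median log2FC of -0.22 (0.45 per cell). RPS19 was at 2880, 3100 and 3380 CPM in G1 and 2300, 2360 and 2640 in G2M, without overlap (log2FC -0.37 ± 0.03, edgeR adjusted p = 2e-12). Of 78 nuclear genes of oxidative phosphorylation, 48 passed lower and 4 higher as a share of transcripts, at a median of -0.12. Of 47 proteasome and ubiquitin genes, 25 passed lower and 2 higher at -0.11. Among all genes, 25.9% passed lower and 21.6% higher. Counted per cell, 76 of the 78 and 47 of the 47 passed higher and 0 lower. Where 0 members of a list passed higher in edgeR, 0 did in DESeq2. At an unadjusted p below 0.05 the count was 1 for the interstitial collagens and 0 for complement, interferon response, matrix protease, lipid-handling and ribosomal protein genes.

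**Figure D4:**
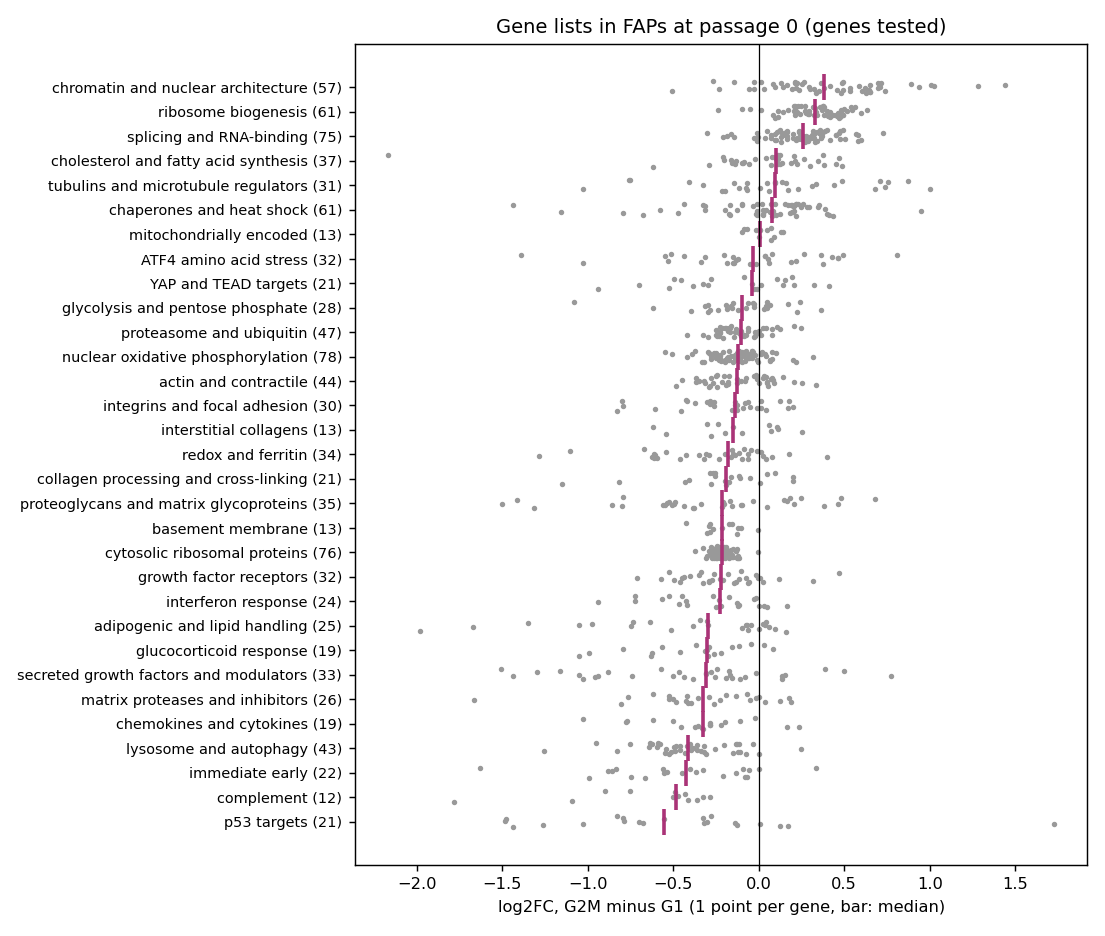
log2FC of G2M over G1 in P0 FAPs for the genes of each list, with 1 point per gene, a bar at the list median and the number of genes tested. Ribosome biogenesis (0.33), splicing (0.26) and chromatin genes (0.38) lie above all genes (-0.02), and p53 targets (-0.56), complement (-0.48) and lysosome genes (-0.41) below; counted per cell, the medians of these 3 turn positive while they stay below that of all genes (0.63).

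Counted as UMIs per cell instead of as a share, nearly all genes were higher in G2M. The median log2FC of all genes tested moved from -0.02 to 0.63, and of the genes outside the cycle lists that passed, 7739 were higher and 187 lower. Relative to that shift, ribosome biogenesis stood at 0.36, splicing at 0.29, p53 targets at -0.54, complement at -0.46, lysosome at -0.38 and ribosomal proteins at -0.18. The direction itself turned for all 4 of these lists that were lower as a share, with medians per cell of 0.09 for p53 targets, 0.17 for complement, 0.24 for lysosome and 0.45 for ribosomal proteins. Of the lysosome genes, 23 passed higher and 2 lower per cell. It turned as well for DCN (0.32) and COL1A2 (0.12). Per cell, 16 named genes kept their direction but no longer passed, among them CTSD (-0.17, edgeR adjusted p = 0.069), CTSK, CD9 (-0.14, 0.11), ITGB5 (-0.18, 0.077), CSF2 (-0.34, 0.082), CDKN1C (-0.57, 0.094), FGFR1 (-0.05, 0.69), MMP1, ADAMTS1 and IGFBP3. The leading genes of G1 remained lower in G2M per cell as well, with PLTP at -3.11, CDKN1A at -1.52, CLU at -1.13, MXD4 at -1.07, MDM2 at -0.77, NUPR1 at -0.74 and SQSTM1 at -0.59, each past the threshold.

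Depth could be matched in part. With each cell thinned to 10000 UMIs and shallower cells left out, 60 of the 174 genes called lower were still tested. All 60 passed in the same direction at a median log2FC of -1.19, against -1.22 for the same genes with all cells. Of the 65 called higher, 38 were tested and 38 passed. Over all 7322 genes tested there, 1406 passed lower and 1172 higher. Thinning keeps the expected share of each transcript in a cell, and the genes were called on these same cells. Their direction was thus largely set beforehand and does not test the part of depth. Among cells of 15000 to 30000 UMIs only, 53 genes called lower were tested, 53 kept their direction and 45 passed, at a median of -1.03 against -1.21. For genes called higher these were 33 tested, 33 in the same direction and 33 passed. Over all 7020 genes tested in that window, 1126 passed lower and 968 higher. Its cells were also a part of those on which the genes were called. Genes that could not be tested had too few UMIs left in the smaller sums.

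Transcripts of endothelial marker genes within FAPs also moved with the phase. The 10 vascular endothelial markers summed to 38.7 to 175 CPM in the G1 sums of FAPs, and to 25.4 to 59.4 CPM in G2M, and 5 of the 6 tested passed lower in G2M. CLDN5, a tight junction protein, was at 1560 CPM in the vascular endothelial cells (VECs) of P0 and at a median of 24.2 CPM in G1 FAPs and 9.01 in G2M FAPs. VECs themselves were in G1 in 85.1 ± 6.26% of cells (SD, n = 9). Where the marker transcripts in FAPs came from was not tested. With the FAPs that held 2 or more UMIs of these markers left out (18.9% of G1 and 17.2% of G2M), 141 of the 174 genes called lower were tested and 138 passed in the same direction, as did 62 of 62 called higher. Over all 9319 genes tested there, 2217 passed lower and 1867 higher. The cells that remained had also served to call these genes. The 7 lymphatic endothelial markers summed to 142 to 259 CPM in G1 and 86.5 to 178 in G2M, which was mostly PDPN (podoplanin), itself at 148 CPM over all P0 FAPs. The others, PROX1, LYVE1, CCL21, MMRN1, FLT4 and RELN, were at 0.0954, 0.191, 0.396, 1.42, 0.345 and 0.044 CPM over FAPs of all phases. In the lymphatic endothelial cells of P0 they were at 50.3, 91.4, 182, 1240, 164 and 33 CPM. Of the 7, only PDPN had enough UMIs for a test between G1 and G2M. The 11 monocyte and macrophage markers were at 19.5 to 33.7 CPM in G1 and 19.2 to 33.8 in G2M.

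The same comparison was made in FAPs of later passages. At passage 2 (P2), 6 animals had enough FAPs in both phases, at passage 5 (P5) 8 and at passage 8 (P8) 9. In contrast to P0, these cultures had been sorted as FAPs in animals 4, 7 and 8 and as SCs in animals 5, 6 and 10, and were unsorted in animals 1, 2 and 9, on a different coating for each kind. FAPs of P5 and P8 therefore include cells left in cultures sorted for SCs. Of the 65 genes called higher at P0, 63 were tested at P2 and 63 passed higher there, where 24.0% of all genes did. At P5 these were 42 of 46 (17.9% of all genes) and at P8 38 of 40 (19.2%). In the 6 animals not sorted for SCs, they were 46 of 53 at P5 (14.4% of all genes) and 39 of 41 at P8 (13.5%). MXD3 had a log2FC of 4.38 at P2, 3.77 at P5 and 4.42 at P8, and ARL6IP1 of 1.56, 0.95 and 1.19.

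The genes high in G1 at P0 were followed in the same way. Of the 174 called lower at P0, 122 of 153 tested passed lower at P2, where 26.2% of all genes did, 79 of 132 at P5 (20.3%) and 93 of 125 at P8 (22.6%). In the 6 animals not sorted for SCs, they were 70 of 147 at P5 (14.9%) and 72 of 119 at P8 (14.3%). PLTP, SULF2, MXD4, ADAMTS5, CPZ, PERP and RENBP passed lower at all 3 passages, though SULF2 missed the threshold at P5 in those 6 animals (-0.30, edgeR adjusted p = 0.051), with MXD4 at -1.24, -0.67 and -1.12. FABP4 and GDF15 did not pass at any of them, and MDM2 had log2FC of -0.09, -0.04 and -0.14 with edgeR adjusted p of 0.41, 0.75 and 0.22. The p53 targets had medians of -0.08, -0.13 and -0.11, with 4 of 21, 6 of 20 and 5 of 18 passing lower and 5, 1 and 3 passing higher, which for lower is close to the shares of all genes. Whether these log2FC differ between passages was not tested. At P2, 4 genes called lower at P0 passed higher, CSF2 (1.79), ABHD8, EXO5 and SPTBN4, and at P5 and P8 ABHD8 and EXO5 did so, all but CSF2 named after their values were seen. Lysosome genes, by contrast, had medians of -0.43, -0.34 and -0.46, and ribosome biogenesis genes of 0.49, 0.38 and 0.50. Proteasome and ubiquitin genes, lower at P0, had medians of 0.06, 0.16 and 0.12, with 14, 26 and 13 passing higher and 9, 2 and 3 lower. Nuclear genes of oxidative phosphorylation were at -0.02, 0.05 and -0.01, with 15, 22 and 12 passing higher and 14, 11 and 11 lower.

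**Figure D5:**
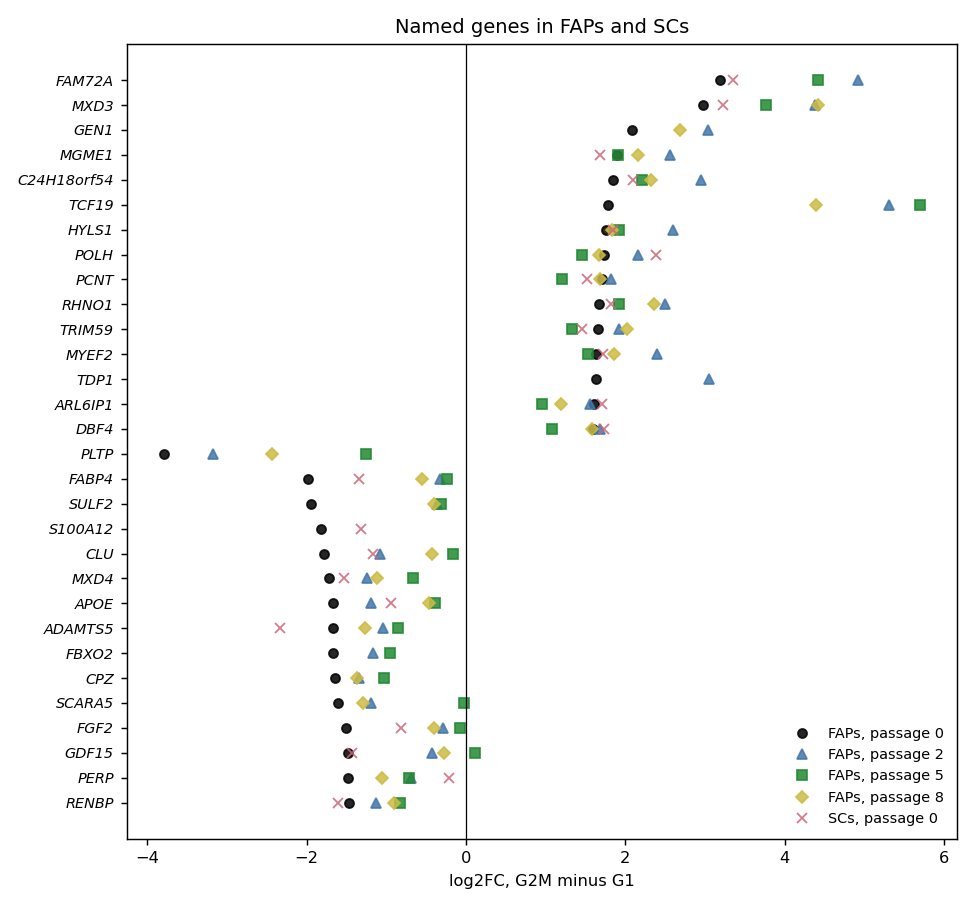
log2FC of G2M over G1 for the 15 highest and 15 lowest genes of P0 FAPs, beside the same genes in FAPs of P2, P5 and P8 and in SCs of P0; a missing point was not tested. The highest genes lie above 0 wherever they were tested, while FABP4, FGF2 and GDF15 lie between -0.55 and 0.11 at the later passages.

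SCs of the same animals and library were set beside FAPs at P0. The SC sums held as few as 22 cells in G1 and 13 in G2M, both in animal 2. All 39 of the 39 tested genes called higher in FAPs passed higher in SCs, where 20.4% of all genes did, and 69 of 82 called lower passed lower, where 23.6% did. CDKN1A was lower in G2M in SCs by -1.59 on the log2 scale and GDF15 by -1.43. The difference in log2FC between FAPs and SCs, fitted as an interaction, passed for 510 of 9046 genes (5.64%), 271 (3.00%) with the higher value in FAPs and 239 (2.64%) with the lower. Over the 15 highest genes the edgeR adjusted p of that difference was 0.13 (POLH) or above. Among the 15 lowest, PERP passed. It had a log2FC of -1.48 in FAPs and -0.21 in SCs (difference -1.25, edgeR adjusted p = 0.014). For MDM2 the values were -1.44 and -0.60 (difference -0.82, edgeR adjusted p = 0.10). Proteasome and ubiquitin genes had a median of 0.06 in SCs, with 13 passing higher and 8 lower. Cholesterol and fatty acid synthesis genes were at -0.06 in SCs, with 4 passing higher and 11 lower. Both medians thus had the opposite sign from FAPs, a difference that was not tested.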

How the data were processed

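Reads of a droplet library per time point were aligned by the authors to the cattle genome ARS-UCD 1.2 (Ensembl annotation) and counted with Cell Ranger 6.0.1 under its standard cell filter, with the runs of a time point joined. The raw UMI counts per gene and cell deposited by the authors were used, and the cells, animals (assigned by demuxlet), cell types, mitochondrial percent of UMIs (median 2.86 to 3.1 over the phases of P0 FAPs), S and G2M score and phase came from the cell table that the authors deposited. In that table, cells far from the median for genes, counts or mitochondrial percent had been removed. The deposited combined expression table holds corrected values, not raw counts, and it and the tables of barcodes before quality control were not used. No other doublet caller was run. P0 shared 7 cell barcodes with the muscle library, 26 with P2, 29 with P5 and 7 with P8.

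UMIs were summed per animal and phase (at least 10 cells) and fitted with edgeR 4.0.16 (quasi-likelihood, robust, TMM scaling, filterByExpr, animal as a block) in R 4.3.3, over all genes at once. P-values were adjusted by Benjamini-Hochberg, and a call needed 0.05 and a log2FC beyond 1. As animals are the replicates and a block in the fit, p-values rest on how the G2M-G1 difference varies over 9 animals, all from 1 library. Differences in level between animals are taken up by the block. The G1 and G2M sums pair by animal by design, and their deviations from the phase means correlated within every animal (r = 0.218 to 0.725 across genes). SCs of P0 and FAPs of P2 were fitted alike, and the difference between FAPs and SCs as an interaction. Phases were scored again with Seurat 5.3.0 from log-normalised raw UMIs. Phase shares were compared by exact permutation of signs over animals. Scripts were tested on simulated data.

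Genes named were the 15 highest and 15 lowest log2FC outside the Seurat, cell cycle and histone lists, with a symbol and at least 10 CPM in G1 or G2M, passed and of 1 sign in every animal, up to 3 members of each list with the largest absolute log2FC, and 3 highest and 3 lowest of each Seurat list. All called members and exceptions of a list were named after their values were seen. The members and lists were chosen with earlier results of these data known. Gene names are those of the deposited feature tables. Alternatives were DESeq2 1.42.0, no filter on low counts, no animal block, UMIs per cell, scaling on genes outside the cycle lists, thinning to 10000 UMIs, cells of 15000 to 30000 UMIs, phases scored again, cells within 0.05 of a boundary left out, a fit with S, and each animal left out. Leaving out cells with endothelial UMIs, shares of cells of at least 5000 UMIs and the fits of P5 and P8, with and without animals sorted for SCs, were added after seeing the data. UMI sums cover counting error only through the model.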

Additional observations from a re-analysis of the deposited data

Results flagged for a closer look

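In 10 of 141 sets of 9 animal values, 1 animal stood far from the others in its log2 difference of G2M and G1. Chance gives about 1 in 20 such sets. Animal 4, whose G1 cells were the shallowest (median 8478 UMIs), was the animal apart for COL8A1 at -2.32 (others -0.99 to -0.08), DPT at 1.25 (0.17 to 0.66), PSME1 at -0.57 (-0.36 to -0.18), SERPINH1 at 0.56 (0.08 to 0.23) and SLC7A5 at 1.67 (0.46 to 1.02). Animal 7 was apart for FABP4 at -3.58 (others -2.28 to -1.04), FGFR1 at 0.45 (-1.31 to -0.46), FOS at -1.83 (-0.98 to -0.48) and TGFBR3 at -1.06 (-0.65 to -0.33). Animal 2 was apart for ACSS2 at 0.81 (others -1.25 to -0.28). FGFR1 and ACSS2 thus went the other way in 1 animal. Why these animals stood apart was not tested.

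For 15 of 131 genes named in the text, the log2FC of G2M over G1 differed between FAPs and SCs of P0 by the interaction test, where 5.64% of all genes did. Most named genes were chosen for a large difference in FAPs, which enters this test, so the count of named genes cannot be read against that share. PERP (-1.25), ANGPTL4 (-1.06), CRYAB (-0.94), HSPB8 (-0.72), P4HA3 (-0.78) and MGP (-3.08) had the lower value in FAPs. ANGPTL4, which blocks lipoprotein lipase, was at -1.05 in FAPs and 0.04 in SCs. HSPB8 and CRYAB, small heat shock proteins, were at -1.44 and -1.15 in FAPs and -0.69 and -0.20 in SCs. BMP2 had the higher value in FAPs (2.00). Neither BMP2 nor MGP had enough UMIs in the smaller SC sums for a fit of its own. They were at 5.02 and 7.21 CPM in SCs, against 7.95 and 6.22 CPM in FAPs. TFE3 (0.35) and CXCL5 (0.50) also had the higher value in FAPs, with CXCL5 at 0.17 in FAPs and -0.31 in SCs. Smaller differences, with the lower value in FAPs, were found for NDUFA1 (-0.26), PSMD8 (-0.31), PSMB1 (-0.21), ACTB (-0.15), ACTG1 (-0.18) and CD9 (-0.26).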

How the results depend on the processing

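Counts of genes outside the cycle lists depended most on scaling and depth. UMIs per cell gave 7739 passed higher, 187 passed lower, 922 called higher and 24 called lower. Over all genes, 97.7% of those that passed were then higher, against 45.4% as a share and 52.6% without a filter on low counts. Thinning to 10000 UMIs gave 898, 1399, 38 and 67, and cells of 15000 to 30000 UMIs gave 717, 1119, 30 and 36, with fewer genes tested in either. Without the filter, 109 were called higher and 398 lower. Phases scored again gave 43 called higher. Leaving out 1 animal gave 1590 to 1703 passed higher, 2235 to 2402 passed lower, 61 to 71 called higher and 163 to 197 called lower. At P2 the genes that passed the same way as called at P0 were 63 to 64 and 110 to 121.

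Without the block by animal, the P0 counts were 1351, 1765, 64 and 176, and the P2 counts 61 and 88. The interaction passed for 19 genes above and 20 below, against 271 and 239 with the pairing, and DESeq2 gave 174 above and 322 below, so the balance between them turned with the tool. Of 138 genes named in the text, 28 lost significance without the block, while the 4 P0 and 2 P2 counts of G2M against G1 in FAPs stayed within 1.5 times and both interaction counts did not.

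The G1 share of FAPs was 28.6% with phases scored again and 31.7% after thinning to 5000 UMIs, and the S share 32.8% and 32.1%. The G1 difference from SCs was then -10.9 and -9.30 points and missed the threshold. Counted per cell, 30 named genes turned from lower to higher: COL8A1 (0.026), TGFBR2 (0.074), COX7A1 (0.079), COL1A2 (0.12), TGFBR3 (0.13), NDUFA3 (0.14), H2AJ (0.15), CCN2 (0.15), TAGLN (0.18), MYL12B (0.19), FKBP7 (0.23), SPARC (0.24), NDUFA1 (0.24), PSMD8 (0.24), ARPC3 (0.29), RPS19 (0.29), DCN (0.32), RPL37A (0.33), PSMB1 (0.34), COL5A3 (0.35), RPLP1 (0.35), LAMC1 (0.36), PSME1 (0.36), HMGN4 (0.38), UTP14A (0.42), CLK1 (0.43), SRSF5 (0.47), DDX17 (0.49), HMGA1 (0.52) and SNRPD2 (0.52). CLK1 was at 0.15 in cells of 15000 to 30000 UMIs. Leaving out 1 animal turned no named gene, and CFD, CLK1, HMGA1, IGFBP3, MMP1, NOTCH1 and TAGLN lost significance without some animal. Levels under about 10 CPM rest on few UMIs in G1, so differences there are less precise.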

Other observations

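As a share of transcripts, 25.9% of all genes passed lower and 21.6% higher in G2M, which the counts of further lists stand beside. Of 44 actin and contractile genes, 19 passed lower and 4 higher in G2M, the 4 being ACTN1 (log2FC 0.34 ± 0.05 SE), ACTG1, TAGLN2 and ACTB, at a median over the list of -0.12. Of 31 genes for tubulins and microtubule regulators, 12 passed higher and 9 lower. TUBA1C, an alpha tubulin, was at a median of 9.18 CPM in G1 and 17.0 in G2M (0.87 ± 0.12), and MAPRE3, which binds growing microtubule ends, was called lower (-1.03 ± 0.14). Of 32 amino acid stress genes driven by ATF4, 7 passed higher and 11 lower. SLC7A5, an importer of large amino acids, was at 12.8 and 25.6 CPM (0.81 ± 0.10), whereas NUPR1 and SESN2 of the same list were called lower. Of 13 mitochondrially encoded genes, 3 passed higher and 2 lower at a median of 0.01.

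Of 28 genes of glycolysis and the pentose phosphate path, 13 passed lower and 3 higher. Of 21 targets of YAP and TEAD, 6 passed lower and 2 higher, near the share of all genes for lower, with IGFBP3, which binds insulin-like growth factors, at -0.94 ± 0.28 and CCN2 at -0.53 ± 0.12. Of 19 genes induced by glucocorticoids, 13 passed lower and 0 higher at a median of -0.30, and of 13 basement membrane genes 8 and 0 at -0.22, and at an unadjusted p below 0.05 and by DESeq2 0 members of either were higher. Per cell both medians turned positive (0.35 and 0.44). Among the basement membrane genes was SPARC at -0.43 ± 0.09. Collagen processing genes passed lower in 13 of 21 cases and higher in 1, SERPINH1 (0.20 ± 0.04), the collagen chaperone, while P4HA3, a prolyl hydroxylase, was called lower (-1.15 ± 0.13).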
